A study of Homo sapiens with 4 samples.

Results

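The sites described here are FAIRE sites that lay in coding exons away from promoters. They were the sites of either list, on chromosomes 1 to 22 and X, whose centre fell in a coding exon of a protein-coding gene (GENCODE release 44 on GRCh37, the assembly behind hg19), more than 2 kb from every annotated transcription start and more than 500 bp from the 3′ end of the gene. There were 212 such exonic sites among 34413 sites in basal conditions and 194 among 31201 sites under SF-1 overexpression. Merged where they overlapped, they made 325 sites in 311 genes. FAIRE (formaldehyde-assisted isolation of regulatory elements) recovers DNA that is not held by nucleosomes, and it was followed by sequencing. The H295R/TR SF-1 cells used derive from H295R, an established adrenocortical tumour line, and are a subclone that makes extra SF-1 (NR5A1), a nuclear receptor, when doxycycline is added. Basal cells carried the same construct without induction, and overexpressing cells had received doxycycline for 3 days before fixation. Each condition had 1 FAIRE library and 1 input DNA library, and the input libraries were not analysed here. With 1 library per condition there is no replicate check and no test between conditions, and all intervals below are 95% intervals that cover counting error only, since sites of 1 library are not replicates.

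Open chromatin is best known at promoters and at enhancers in introns and between genes. A coding exon is under a different constraint, because its bases specify amino acids, yet transcription factors can also bind there, and a stretch of exon can then serve both as code and as a binding site. SF-1 governs the steroidogenic genes of the adrenal cortex and the gonads and binds as a monomer to an extended nuclear receptor half-site. CTCF is the insulator factor that anchors chromatin loops, AP-1 is the dimer of Jun and Fos proteins found at many enhancers, and NRSF/REST represses neuronal genes in other tissues.

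For each motif the 3 exonic sites that stood earliest in their list were taken, and those whose match lay within coding sequence or at the border of the exon are shown by sequence, as examples of a motif in the code. The early sites of KCNU1 (SF-1 motif) and of UNC13A and CEP83 (AP-1 motif) had their match outside coding sequence and are not shown for it. Sequences were read from the plus strand of GRCh37, 5′ to 3′, with the motif in capitals. The SF-1 motif was CAAGGTCA or CAAGGCCA on either strand. In SRCIN1, which encodes an inhibitor of the kinase Src, and in WWOX, a tumour suppressor at a fragile site, it lay within coding sequence. The WWOX match sits near the 3′ end of exon 6.
SRCIN1, chr17:36707451-36707648: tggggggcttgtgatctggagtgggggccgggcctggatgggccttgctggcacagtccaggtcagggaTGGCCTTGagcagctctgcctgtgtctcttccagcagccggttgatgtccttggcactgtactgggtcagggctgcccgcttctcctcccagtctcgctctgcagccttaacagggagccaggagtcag
WWOX, chr16:78420711-78420959: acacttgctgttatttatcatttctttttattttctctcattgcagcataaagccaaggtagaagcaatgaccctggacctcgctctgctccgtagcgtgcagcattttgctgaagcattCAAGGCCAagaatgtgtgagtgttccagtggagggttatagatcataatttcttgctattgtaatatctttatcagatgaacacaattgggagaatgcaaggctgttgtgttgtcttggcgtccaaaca

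The CTCF motif, searched with at most 1 mismatch, lay in coding sequence of ZER1, which encodes a substrate receptor of a ubiquitin ligase, of UNC13A, which primes synaptic vesicles for release, and of WDTC1, which encodes a WD-repeat protein.
ZER1, chr9:131495666-131495899: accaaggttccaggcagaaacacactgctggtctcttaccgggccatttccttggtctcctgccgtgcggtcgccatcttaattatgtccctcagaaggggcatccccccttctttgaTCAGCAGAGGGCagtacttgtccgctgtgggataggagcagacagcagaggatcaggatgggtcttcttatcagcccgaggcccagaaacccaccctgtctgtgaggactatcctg
UNC13A, chr19:17716901-17717149: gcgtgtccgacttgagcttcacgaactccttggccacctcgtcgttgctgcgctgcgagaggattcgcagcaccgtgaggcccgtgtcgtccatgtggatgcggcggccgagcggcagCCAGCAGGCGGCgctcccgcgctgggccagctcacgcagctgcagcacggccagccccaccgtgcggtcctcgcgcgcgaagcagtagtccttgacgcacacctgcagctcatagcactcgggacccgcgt
WDTC1, chr1:27618601-27618849: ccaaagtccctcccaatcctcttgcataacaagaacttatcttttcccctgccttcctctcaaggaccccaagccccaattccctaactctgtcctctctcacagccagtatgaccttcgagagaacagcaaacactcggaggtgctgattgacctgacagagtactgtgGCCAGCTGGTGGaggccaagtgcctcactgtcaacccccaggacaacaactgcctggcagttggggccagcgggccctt

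The AP-1 motif, TGACTCA or TGAGTCA, is shown in ELOA, the gene of the elongation factor elongin A.
ELOA, chr1:24077751-24078049: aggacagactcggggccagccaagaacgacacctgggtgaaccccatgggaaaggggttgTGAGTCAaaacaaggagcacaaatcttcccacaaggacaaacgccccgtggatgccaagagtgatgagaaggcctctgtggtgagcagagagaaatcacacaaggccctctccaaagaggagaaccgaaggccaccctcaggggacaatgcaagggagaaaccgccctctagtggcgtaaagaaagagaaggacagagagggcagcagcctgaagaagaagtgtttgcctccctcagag

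The NRSF/REST motif, again with at most 1 mismatch, is shown in OSBPL10, an oxysterol-binding protein gene, in EP400, the gene of a chromatin remodeller, and in PTPN6, which encodes the tyrosine phosphatase SHP-1. In EP400 it crosses the border of exon 14.
OSBPL10, chr3:31774701-31774883: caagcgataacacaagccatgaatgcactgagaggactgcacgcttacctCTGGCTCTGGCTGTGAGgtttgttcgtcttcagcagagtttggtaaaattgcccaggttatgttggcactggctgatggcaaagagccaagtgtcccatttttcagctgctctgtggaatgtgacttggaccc
EP400, chr12:132490601-132490899: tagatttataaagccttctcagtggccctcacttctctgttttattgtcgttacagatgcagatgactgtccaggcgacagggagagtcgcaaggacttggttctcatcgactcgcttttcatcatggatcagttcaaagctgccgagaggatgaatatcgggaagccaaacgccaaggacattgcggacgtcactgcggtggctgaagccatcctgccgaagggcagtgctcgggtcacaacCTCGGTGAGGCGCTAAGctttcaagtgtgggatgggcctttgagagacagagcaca
PTPN6, chr12:7063951-7064180: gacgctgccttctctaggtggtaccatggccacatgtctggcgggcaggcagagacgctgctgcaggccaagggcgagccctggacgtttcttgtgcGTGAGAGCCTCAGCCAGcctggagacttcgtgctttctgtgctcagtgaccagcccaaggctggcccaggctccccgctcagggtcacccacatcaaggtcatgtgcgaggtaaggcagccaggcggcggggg

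Exonic sites were rare in both lists. They were 0.616% (0.536 to 0.704) of the basal sites and 0.622% (0.538 to 0.715) of the overexpression sites, so the share differed by less than its counting error. Coding bases that met the rule measured 17.98 Mb in 15569 genes, which was 0.634% of the 2836 Mb of known bases. If site centres were placed evenly over those bases, 218.2 basal and 197.8 overexpression sites would fall in them. The observed numbers were 0.972 times (0.845 to 1.11) and 0.981 times (0.847 to 1.13) the expected ones, and neither could be told from even placement. Sites in introns of coding genes under the same distance limits numbered 9929 and 7984, which was 0.821 times (0.805 to 0.837) and 0.728 times (0.712 to 0.744) their own expectation.

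Much of either list lay at promoters, where no exonic site could lie by definition. Sites within 2 kb of a start made up 39.9% of the basal list and 44.7% of the overexpression list. A comparison chosen after seeing the data therefore used only sites and bases beyond 2 kb, of which coding exons held 0.732%. On that footing the exonic sites were 1.40 times (1.22 to 1.60) the expected number in basal conditions and 1.53 times (1.33 to 1.77) under overexpression, and intronic sites were 1.18 times (1.16 to 1.21) and 1.14 times (1.11 to 1.16). Coding exons are richer in GC than most sequence far from promoters. When the expectation was set within classes of GC content, 2.5 percentage points wide, over all sites, the ratios were 0.447 (0.388 to 0.511) and 0.381 (0.329 to 0.438). Beyond 2 kb and within GC classes, also chosen after seeing the data, they were 1.07 (0.931 to 1.22) and 0.916 (0.792 to 1.05), so the numbers could then not be told from the expected ones. Intronic sites on this last footing were at 1.17 (1.15 to 1.19) and 1.11 (1.09 to 1.14).

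**Figure D1:**
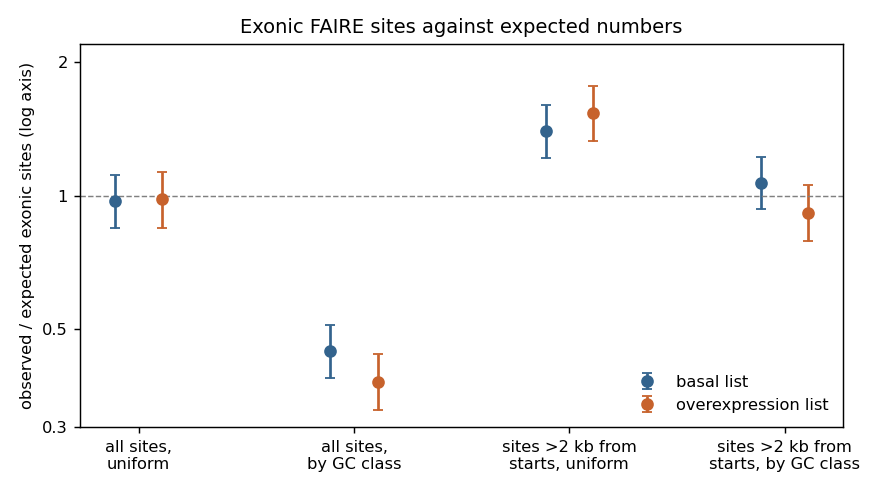
Observed over expected number of exonic sites in each list (log axis) under 4 ways of setting the expectation, with exact Poisson 95% intervals and a dashed line at 1. Even placement of all sites gives ratios near 1, GC classes over all sites give 0.447 and 0.381, and sites beyond 2 kb from starts give 1.40 and 1.53, or 1.07 and 0.916 within GC classes.

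That last balance was made of opposite departures at low and at high GC. Beyond 2 kb, exonic sites with less than 35% GC in a window of the median site width around the centre numbered 28 (basal) and 13 (overexpression), which was 2.27 times (1.505 to 3.27) and 2.03 times (1.08 to 3.47) the expected number. Between 40 and 45% GC the ratios were 1.74 (1.32 to 2.25) and 1.66 (1.21 to 2.21). At 60% GC and over, where coding bases make up 7.33% of all sequence beyond 2 kb, only 18 basal and 29 overexpression sites were exonic. There the ratios were 0.318 (0.188 to 0.502) and 0.375 (0.251 to 0.539). The expected number in a class was the number of sites of that GC content times the coding share of bases of that GC content. In both lists, the exonic part of AT-rich sites thus exceeded the coding share of such sequence. For the most GC-rich sites it fell short of that share. These ratios do not say how densely AT-rich or GC-rich coding sequence was covered by sites.

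**Figure D2:**
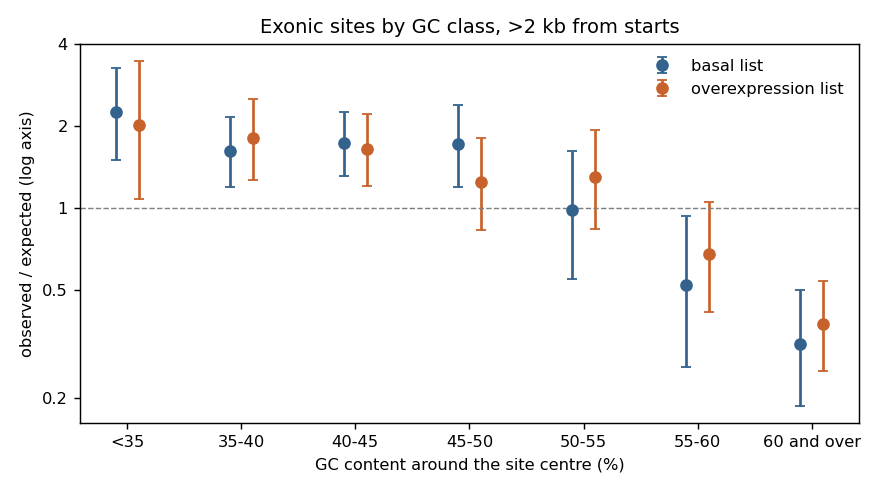
Observed over expected number of exonic sites (log axis) by the GC content of a window of the median site width around the centre, counting only sites and bases beyond 2 kb from starts, with exact Poisson 95% intervals. In both lists the ratio lies near 2 below 35% GC and below 0.4 at 60% GC and over.

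The GC content of the sites themselves differed between the lists. Basal exonic sites held 45.2% GC on average (SD 9.75, 212 sites) and overexpression exonic sites 48.6% (SD 10.4, 194 sites). Coding windows, which had the width of the median site and a centre that met the rule, held 47.7% (SD 11.1), and intronic sites 41.7% and 44.5% in the respective lists. The difference came with the sites of 1 condition, since shared exonic sites held 47.9% (basal) and 48.7% (overexpression), against 42.6% for basal-only and 48.6% for overexpression-only exonic sites. All sites of the lists moved the same way, from 48.8% to 51.9%, and the depth and GC bias of the libraries, which the lists do not give, cannot be told apart from the conditions. Sequence like a CpG island, with at least 55% GC and an observed over expected CpG ratio of at least 0.65, was found in 11 basal exonic sites (5.19%) and in 15 overexpression exonic sites (7.73%). The same held for 3.13% of the coding windows and for 0.826% and 0.964% of the intronic sites.

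The name internal exon did not hold for all of them. By the transcript used for each site, 175 basal sites (82.5%, 76.8 to 87.4) and 159 overexpression sites (82.0%, 75.8 to 87.1) lay in an exon that was neither first nor last. The remaining 37 and 35 lay in the last exon, in its coding stretch, and 0 lay in a first exon. Of the coding windows, 76.4% were in internal and 23.01% in last exons. Exonic sites lay at a median of 7932 bp (basal) and 8839 bp (overexpression) from the nearest annotated start of any gene. The farthest, in HDAC9, was 126882 bp away. Intronic sites lay farther from starts, at medians of 11267 and 11359 bp. The rule set the lower bound, and the sites next to it were a basal site of NFX1 at 2003 bp and, just left out, an overexpression site at 1977 bp.

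Long exons held fewer of these sites than their share of coding sequence. Exons of at least 1000 bp carried 28 basal sites (13.2%, 8.96 to 18.5) and 31 overexpression sites (16.0%, 11.1 to 21.9), while 28.04% of coding windows lay in such exons. The median exon measured 176 bp in the basal list and 176.5 bp in the overexpression list, against 199 bp over coding windows. Basal exonic sites were 99 to 549 bp wide and overexpression exonic sites 99 to 799 bp, and most spilled over an exon border. The site lay wholly within its exon in 39 basal (18.4%) and 37 overexpression cases (19.1%), and it covered the whole exon in 94 (44.3%) and 78 (40.2%). On average 60.03% and 61.7% of the window around the centre was coding, against 67.0% for coding windows.

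**Figure D3:**
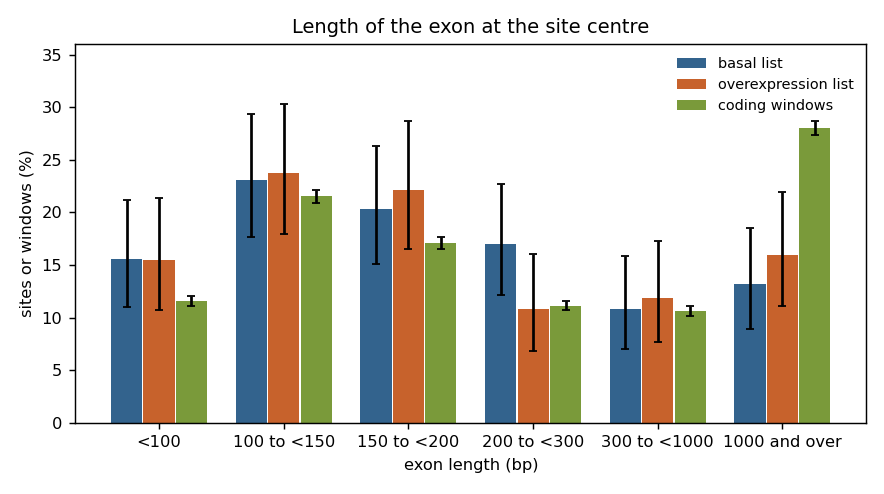
Share of exonic sites of each list and of coding windows by the length of the exon at the centre, with exact 95% intervals. Exons of 1000 bp and over hold 28.04% of coding windows but 13.2% of basal and 16.0% of overexpression exonic sites.

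Every deposited score was the same, so a site was described by its width and its peak number. The quantity that set the order of peak numbers is not given in the sources used here, and a place in the list is therefore not a measure of strength. Wider exonic sites tended to stand earlier (Spearman rho -0.753 across the 212 basal and -0.772 across the 194 overexpression sites, which share a library within each list), with exceptions such as SCFD2, 499 bp wide at peak 17053. Peak numbers are given below as a percentage of the list length, so that low values are early places. Exonic sites had their median place at 56.3% in both lists, close to intronic sites at 56.9% and 58.9%. The first decile of the basal list held 10 exonic sites and that of the overexpression list 4.

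Sites with an overlap of 1 bp or more between the lists count as shared. In the basal list 110 exonic sites had no overlapping site in the other list, or 51.9%, against 45.8% of all basal sites. In the overexpression list 84 had none, or 43.3%, against 40.3% of all overexpression sites. The shared part was thus 102 of 212 in the basal list (48.1%, 41.2 to 55.1) and 110 of 194 in the overexpression list (56.7%, 49.4 to 63.8). The difference from the other sites of the list was -6.12 points (-12.8 to 0.598, Newcombe interval) in basal conditions and -3.02 points (-10.1 to 3.77) under overexpression, and both intervals include 0. Intronic sites were shared at 40.5% and 50.5%. Exonic sites exceeded them by 7.58 points (0.883 to 14.3) in the basal list and by 6.25 points (-0.870 to 13.1) in the overexpression list, where the interval includes 0.

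The shared part fell along either list. Given their places in deciles of the list, exonic sites would have been shared at 39.9% and 51.9% with the rates of intronic sites, and at 49.0% and 56.0% with the rates of all sites. Their observed 48.1% and 56.7% lay closer to the latter. In the basal list 7 of the 10 exonic sites of the first decile and 3 of the 18 of the last were shared.

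**Figure D4:**
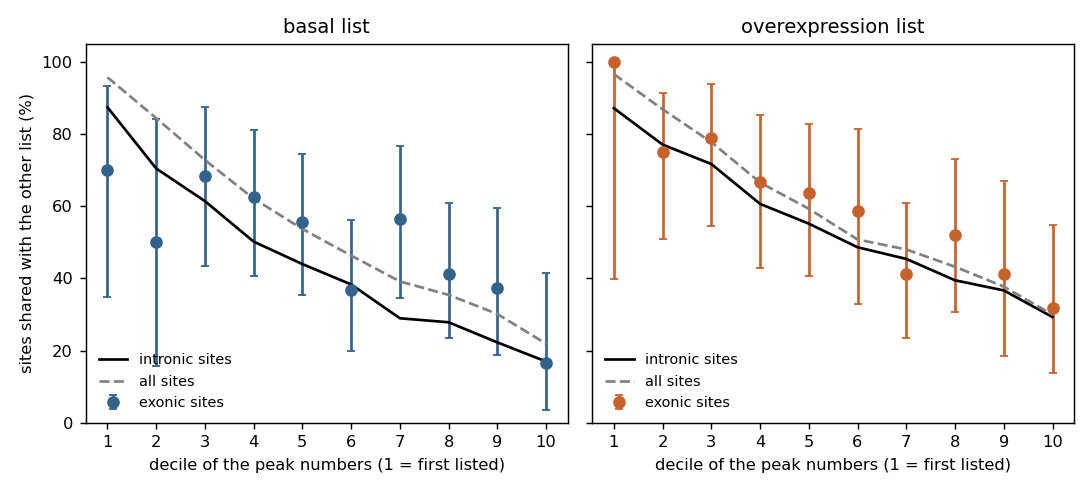
Shared part of exonic sites (points, exact 95% intervals), of intronic sites (solid line) and of all sites (dashed line) by decile of the peak numbers in the basal and the overexpression list. The shared part falls along both lists, with 4 to 30 exonic sites per decile. In the basal list the intervals lie below the line of all sites in deciles 1 and 2 and above that of intronic sites in decile 7.

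Both members of a shared pair were exonic in 81 merged sites. A further 131 merged sites held a basal exonic site only and 113 an overexpression exonic site only, and 50 of these overlapped a site of the other list whose centre lay outside the rule. Widths in the 2 conditions were compared over the shared basal sites. The overlapping overexpression site was wider in 31 pairs, equally wide in 27 and narrower in 44, with a median difference of 0 bp (quartiles -50 and 50).

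Overexpression-only exonic sites were 0.764 times (0.568 to 1.02) as many as basal-only ones. Over all sites that ratio was 0.798 (0.779 to 0.817) and over intronic sites 0.670 (0.643 to 0.698). It rose with GC content. Below 40% GC, 20 overexpression-only sites stood against 49 basal-only sites, a ratio of 0.408 (0.230 to 0.700). Between 40 and 50% GC the numbers were 28 and 41, and at 50% GC and over they were 36 and 20, a ratio of 1.8 (1.01 to 3.28). Intronic sites gave 0.412, 0.770 and 1.75 in these classes, so the turn toward GC-rich sites under overexpression was not particular to exons. A part of depth or library composition in this turn was not tested.

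The widest shared exonic sites are given by the mean width of the overlapping pair. Of the 6 pairs, only that of ALDH1A1 was exonic in both lists. The centre lay outside the rule in the overexpression site of SNX2 and in the basal sites of UNC13A, TBC1D5, DEF6 and PDE7B. The first pair lay in UNC13A, in exon 44 of 44 on chromosome 19. The exonic site measured 799 bp under overexpression, at 3.23% of the list, and held 70.1% GC. The overlapping basal site measured 299 bp, at 25.9%. In SNX2, a sorting nexin gene on chromosome 5, the site over exon 7 was 449 bp in basal conditions and 599 bp under overexpression. TBC1D5, which encodes a regulator of Rab GTPases, had a 549 bp basal site and a 399 bp overexpression site over exon 22. These 2 sites stood at 2.13% of the basal list and at 20.9% of the overexpression list, the reverse of UNC13A.

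In DEF6, a guanine exchange factor gene, the site over exon 7 measured 549 bp under overexpression. The overlapping basal site, which reached part of that exon, measured 399 bp. ALDH1A1, which encodes a retinaldehyde dehydrogenase, carried 449 bp in both conditions over exon 8. PDE7B, a cAMP phosphodiesterase gene, carried 299 bp under overexpression over exon 11. The overlapping basal site of 549 bp reached only part of that exon. Their mean of 424 bp was equalled by pairs in SCIN and LAMB4. These widest pairs therefore included changes of width in both directions.

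Among sites of 1 condition, the widest basal-only ones were 499 bp in SCFD2 and in CEP83, the latter a centriole protein gene, and 449 bp in GNAT3, which encodes gustducin of taste cells, tied with ESR2, MPP7 and TXLNG. The widest overexpression-only ones were 399 bp in RPS6KC1 and in ZNF704 and 349 bp in MAP4, the gene of a microtubule-associated protein, tied with EMILIN3, MYO1E, NETO2 and PTPN6. The MAP4 site lay wholly in coding sequence of a 1224 bp exon, whereas those of SCFD2, CEP83, GNAT3 and RPS6KC1 were between 20.4% and 35.3% coding.

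Motifs of SF-1 and CTCF were found in exonic sites far more often than in their surroundings. The SF-1 motif was found in 34 basal exonic sites (16.0%, 11.4 to 21.7) and in 33 overexpression exonic sites (17.0%, 12.0 to 23.1). Flanks of equal length, 1000 bp beyond either end, held it in 2.83% in both lists. Coding windows of the same GC content held it in 2.70% and 3.19%. Exonic sites exceeded their flanks by 13.2 points (8.42 to 18.9) and 14.2 points (9.06 to 20.2). Intronic sites held it in 17.8% and 18.5%, and the difference from exonic sites included 0 in both lists (-6.16 to 3.82 and -6.17 to 4.52 points). Sites within 2 kb of starts held it in 6.85% and 7.21%. Coding windows were as long as the median site, so wider sites had more sequence to match.

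The match of the SF-1 motif was in coding sequence in 27 of the 34 basal sites and in 28 of the 33 overexpression sites. Its median distance from the site centre was 44 and 31.5 bp. Since the centre was coding by the rule and 61.1% and 62.3% of these sites was coding, this place near the centre and within the exon was in part fixed by the choice of sites. The earliest SF-1 motif sites were those of KCNU1, a potassium channel gene of sperm, at 4.08% of the basal list, SRCIN1 at 6.93% of the overexpression list and WWOX at 8.19% of the basal list. All of them were shared. The KCNU1 site was 399 bp in basal conditions and narrower, at the median width, under overexpression, where it ended before the match and so did not hold the motif. SRCIN1 had 299 and 349 bp, and WWOX had 449 and 349 bp. The basal site of SRCIN1 had its centre outside the rule.

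The CTCF motif was found in 40 basal exonic sites (18.9%, 13.8 to 24.8) and in 42 overexpression exonic sites (21.6%, 16.1 to 28.1), against 0.472% and 1.29% of their flanks and 1.99% and 2.79% of coding windows at their GC content. Intronic sites held it in 18.7% and 17.2%. The exonic minus intronic difference was 0.185 points (-4.57 to 6.04) and 4.48 points (-0.805 to 10.8). The match lay in coding sequence in 31 of 40 and 35 of 42 sites, at a median of 30 and 32 bp from the centre. These sites were 67.3% and 69.9% coding on average, so this place was again in part fixed by the choice of sites. ZER1 carried the earliest exonic site with a CTCF motif, 349 bp wide at 0.445% of the basal list. The overlapping overexpression site, 299 bp wide at 1.08% of its list, had its centre outside the rule. UNC13A followed, and then WDTC1, whose site of median width was found under overexpression only. SF-1 and CTCF motifs seldom met in a site, in 2 basal and 1 overexpression cases, and 72 basal (34.0%) and 74 overexpression exonic sites (38.1%) held at least 1 of them, beside 35.6% and 34.5% of intronic sites.

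AP-1 differed from SF-1 and CTCF in that it showed no excess over flanks beyond counting error. Its motif was found in 11 basal exonic sites (5.19%, 2.62 to 9.09) and in 7 overexpression exonic sites (3.61%, 1.46 to 7.29), close to the 4.72% and 2.32% of their flanks and to 3.50% and 3.38% of coding windows. The difference from flanks was 0.472 points (-2.87 to 4.67) and 1.29 points (-1.46 to 5.10). Intronic sites held it in 8.66% and 7.05%, against 3.96% and 3.78% of their flanks. The exonic minus intronic difference for AP-1 was -3.47 points (-5.81 to 0.427) and -3.44 points (-5.38 to 0.248), and both intervals include 0. The match lay in coding sequence in 4 of 11 and 3 of 7 sites, which were 43.6% and 62.3% coding on average. With so few sites, no tendency away from the code can be read from these counts. CEP83 and UNC13A held their match outside coding sequence. ELOA held its match inside exon 4, in the 299 bp site of the overexpression list. The narrower overlapping basal site of 199 bp did not reach it.

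The NRSF/REST motif was found in 5 basal exonic sites (2.36%, 0.770 to 5.42), in LRTM2, NR2F6, OSBPL10, SRGAP1 and EDNRB, and in 4 overexpression exonic sites (2.06%, 0.565 to 5.19), in ARID1B, EMILIN3, EP400 and PTPN6. Intronic sites held it in 0.776% and 0.939%, with differences of 1.58 points (0.222 to 4.63) and 1.12 points (-0.157 to 4.25). Only the basal interval leaves out 0, and it rests on 5 sites. Against their flanks the differences were 1.65 points (-0.257 to 4.73) and 1.29 points (-0.650 to 4.45), and both intervals include 0. Of the 9 sites, those of EDNRB and EP400 were shared. In both genes the overlapping site of the other list ended before the end of the match, so it was not counted there. OSBPL10 had the earliest, 349 bp wide at 5.46% of the basal list. A control sequence with the composition of the SF-1 motif, GACATGCA or GACACGCA, was found in 3 basal exonic sites (1.42%) and in 0 of 194 overexpression exonic sites, whose upper limit is 1.88%, and in 1.05% of coding windows.

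**Figure D5:**
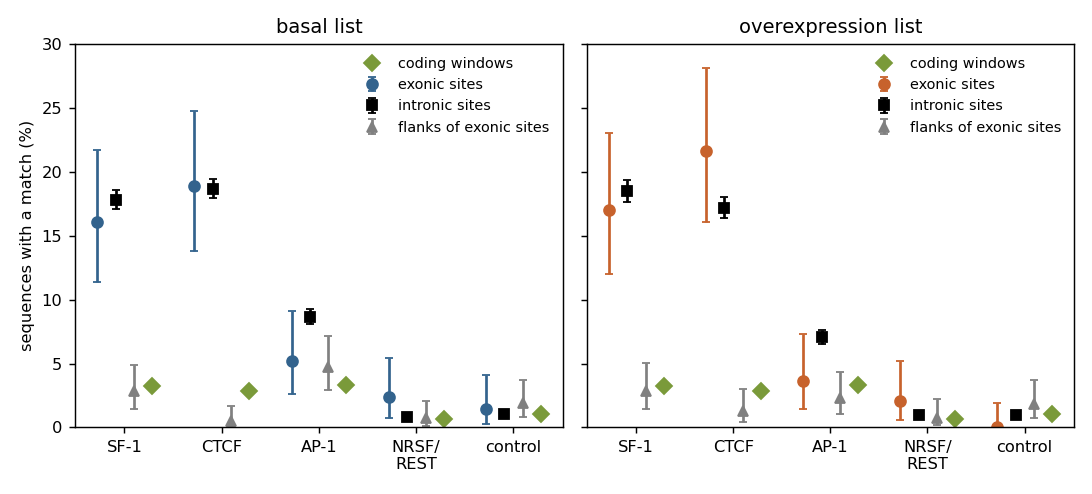
Share of sequences with a motif among exonic sites, intronic sites, flanks of exonic sites (exact 95% intervals) and coding windows that met the rule, for the basal and the overexpression list. SF-1 and CTCF motifs stand at 16.0 to 21.6% in exonic sites and below 4% in flanks and coding windows, while AP-1 stands near the level of the flanks.

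Motif content was also compared between shared and unshared sites. In the basal list the SF-1 motif was in 21.6% of shared and 10.9% of basal-only exonic sites, a difference of 10.7 points (0.710 to 20.7). The CTCF motif was in 24.5% and 13.6%, a difference of 10.9 points (0.285 to 21.4). AP-1 went the other way, with 1 of 102 shared and 10 of 110 basal-only sites, a difference of -8.11 points (-15.0 to -2.14). In the overexpression list the same differences had the same signs, at 4.81 points (-6.19 to 15.0), 8.79 points (-3.05 to 19.8) and -4.13 points (-11.5 to 1.55), and all 3 intervals include 0. Intronic sites of the basal list had the same order for SF-1 (21.2% of shared, 15.5% of basal-only sites) and for CTCF (22.9% and 15.8%). The excess of these 2 motifs in shared sites was thus not particular to exons. For AP-1 intronic sites did not follow the exonic order, with 9.49% in shared and 8.09% in basal-only sites. Overexpression-only minus basal-only exonic sites differed by 3.38 points for SF-1 (-5.94 to 13.5), by 3.03 points for CTCF (-6.99 to 13.8) and by -3.14 points for AP-1 (-10.8 to 5.17), so no difference in motif content between the conditions was detectable with these numbers.

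Sites were spread thinly over genes. Of the 311 genes, 14 held 2 merged sites and 0 held more. They included giants such as TTN, the sarcomere ruler, with basal-only sites of 299 and 149 bp in exons 128 and 85 of 363, and SYNE1 and SYNE2, which tie the nucleus to the cytoskeleton, with 2 sites each. TOP1, the gene of DNA topoisomerase I, held a basal-only site of 149 bp in exon 9 and an overexpression-only site of median width in exon 13. POU2F1, which encodes the factor OCT-1, held a basal-only site in exon 13 and a shared site in exon 15. These genes and the family members below were named after their values were seen.

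Of 20 gene families, set by gene symbol, all had intervals that include 1 when the expectation followed coding length. Genes of like function under other symbols were not counted in a family. C2H2 zinc fingers are transcription factors whose repeated finger domains are often coded by a long last exon. Under the symbols ZNF, ZSCAN, ZFP, ZBTB and ZKSCAN they held 8 merged sites against 14.6 expected, a ratio of 0.547 (0.236 to 1.08). Within GC classes it was 0.479 (0.207 to 0.943). Of these 8, only the site of ZNF449 was shared. Those of ZNF337, ZNF620 and ZNF721 lay in the last exon. Cadherins and protocadherins, adhesion molecules whose ectodomain can be coded by a large exon, held 0 sites against 3.37 expected (ratio up to 1.10). Olfactory receptors, mucins, keratins, plexins and semaphorins, and HOX, forkhead and SOX factors also held 0, each with under 2.4 expected.

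Laminins, the trimeric proteins of the basement membrane, held 3 sites against 0.801 expected, a ratio of 3.75 (0.772 to 10.9). LAMB4 had a shared site of 499 bp in basal conditions and 349 bp under overexpression, LAMA2 a shared basal site of median width, and LAMB1 an overexpression-only site of 149 bp. Nuclear receptors, the family of SF-1 itself, also held 3 against 0.708 expected, a ratio of 4.24 (0.874 to 12.4). ESR2, the gene of oestrogen receptor beta, carried a basal-only site of 449 bp over exon 7 with an SF-1 motif. NR1H4, the gene of the bile acid receptor FXR, carried a shared site of 299 bp in the overexpression list, and NR2F6, an orphan receptor gene, a basal-only site of 199 bp with CTCF and NRSF/REST motifs. Both intervals include 1.

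Solute carriers held 6 sites against 6.02 expected, and chromatin regulators 4, in ARID1B, CHD3, HDAC9 and KDM6B, against 2.75. The symbols counted as chromatin regulators left out EP400, which had exonic sites in both lists. ABC transporters held 3, in ABCA1, ABCA4 and ABCB4, against 2.02. The 16 steroidogenic genes, of which 14 had coding bases that met the rule, held 0 exonic sites. Only 0.206 were expected from those bases, so a count of 0 is near that expected number. Of 12 steroidogenic markers, 10 had a FAIRE site of either list within 10 kb and 0 had an exonic one. Of all 20098 protein-coding genes 77.8% had a site within 10 kb, so the count over the markers is no check of the cell type.

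By chromosome, the merged sites followed the coding bases with 2 exceptions among 23, looked at after the values were seen. Chromosome 20 held 22 merged sites against 8.22 expected, a ratio of 2.68 (1.68 to 4.05), and chromosome 11 held 8 against 16.0, a ratio of 0.50 (0.216 to 0.985). Among 23 separate intervals some can leave out 1 by counting error alone, and that of chromosome 11 barely did so. Intronic sites of chromosome 11 were also below their expectation, at 0.824 times (0.745 to 0.910) in the basal list and 0.759 times (0.675 to 0.852) under overexpression. On chromosome 20 there were 12 basal and 16 overexpression exonic sites, in genes from SLC52A3 to STMN3, among them STAU1, ZMYND8, MKKS, CDK5RAP1 and DNAAF9 with sites in both lists. Intronic sites of chromosome 20 were at 0.968 times (0.841 to 1.11) and 1.16 times (1.00 to 1.33) their expectation, and the difference between exonic and intronic sites there was not tested.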

How the data were processed

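Samples were grouped per the labels. Peak lists of 1 basal and 1 overexpression FAIRE library of H295R/TR SF-1 cells were used. The deposited score was 1000 throughout and so was not used, and the running peak number, per the file headers the fourth column, gave the place in the list. Coordinates were on hg19, and the submitters' processing notes name CASAVA 1.8. The caller and threshold of these lists were not given in the sources used here. The lists give no read counts, so depth is unknown.

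Site centres were placed in exons of GENCODE release 44 on GRCh37. Expected numbers came from base counts, without random draws. Windows of the median site width on a grid of 50 bp served as coding background. The exon context of windows was taken from every 20th window. Motifs were searched on both strands, CTCF and NRSF/REST with at most 1 mismatch. Intervals were exact Clopper-Pearson, exact Poisson or Newcombe. Named sites were the 6 widest shared by the mean width of the pair, the 3 widest of either condition, the 3 earliest with each motif, and any in steroidogenic genes or in genes with at least 3 sites, with ties broken by chromosome and start. The members, lists and motifs were chosen with earlier results of these data known. Scripts were tested on simulated data. Python 3.11.15, numpy 2.4.6, pandas 2.3.3, scipy 1.17.1 and matplotlib 3.10.9 were used.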

Additional observations from a re-analysis of the deposited data

How the results depend on the processing

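No paired analysis was possible because each condition had 1 FAIRE library. For 38 results, 70 values were recomputed, of which 61 lay within the spread or interval of the reported value (for counts of sites, within 1.5 times it) and 9 moved by more. Counting any overlap of at least 1 bp with a coding exon, other limits kept, gave 475 basal and 420 overexpression sites. Within GC classes the observed over expected ratios were 0.447 and 0.381, and with only sites and bases beyond 2 kb from starts, an alternative chosen after seeing the data, 1.40 and 1.53, so these settings lay on opposite sides of 1 while the reported ratios could not be told from it. Restricted to sites of median width or wider, 66.3% of the overexpression exonic sites were shared. In 500 bp around the centre the SF-1 motif was in 22.2% and the AP-1 motif in 9.43% of the basal exonic sites. Differences between the conditions cannot be told apart from differences between 2 libraries, and depth limits which sites were listed at all.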
